A study of Arabidopsis thaliana with 2 samples.

Results

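FWA (AT4G25530), SDC (AT2G17690) and QQS (AT3G30720) are 3 Arabidopsis thaliana genes whose silencing is known to be linked to DNA methylation around their promoters. The silencing of QQS varies among accessions, and expression was not measured here. The genes were taken by name, 3 of the 27444 protein-coding nuclear genes of the annotation, and not by any value measured here. Each gene was followed from 2 kb upstream of its annotated start to its annotated end, in the Col-0 sequence and at the aligned place in the Ler-0 sequence. Whole-genome bisulfite libraries were compared from rosette leaves of plants homozygous for ibm1-1, a mutant of the histone demethylase IBM1, in the first homozygous generation. The Ler-0 ibm1-1 library came from a line in which the Col-0 mutation had been brought into Ler-0 by 4 backcrosses, and the Col-0 ibm1-1 library from the original Col-0 background. Both were made from 150 ng of DNA of 3-week-old plants, kept at 21°C in days of 16 h light and nights of 8 h. There was 1 library per ecotype, so the differences below have no replicate check, and since both carry ibm1-1 and no wild type was analysed here, the levels compare ecotypes within the mutant and do not show what the mutation changed.

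DNA methylation in plants is found at CpG, CpHpG and CpHpH sites, where H is A, C or T. CpG methylation is copied by the DNA methyltransferase MET1, CpHpG methylation by CMT3, which binds histone H3 methylated at lysine 9, and CpHpH methylation by CMT2 or by DRM1 and DRM2, which are guided by small RNAs. IBM1 removes H3 lysine 9 methylation from transcribed genes. Genes such as FWA, SDC and QQS, which can be silenced through repeats or transposon-derived sequence near their start, are textbook cases of methylation that lies on a promoter instead.

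A methylation level is the share of methylated calls among all calls of the cytosines in a stretch, given in percent with a 95% Wilson interval in brackets. A call is 1 read over 1 cytosine. Neighbouring calls come from the same reads, so the intervals cover counting error only. The Ler-0 library held 313387873 calls, a mean of 6.58 per cytosine, and the Col-0 library 371653818 calls, a mean of 8.63. In the chloroplast, which is taken to be free of methylation, 1.40% of CpG, 2.34% of CpHpG and 1.19% of CpHpH calls were methylated in Ler-0, against 1.42%, 2.25% and 1.12% in Col-0, and nuclear levels of this size cannot be told apart from unconverted cytosines. Cytosines that only the Ler-0 sequence has were covered by reads at 41 of 47 positions in FWA, 72 of 78 in SDC and 23 of 25 in QQS. Where Col-0 has a T in place of such a C, a read of either sequence would be counted. In bases that the aligned Col-0 sequence lacks, 36 of 36 cytosines had reads in FWA, 20 of 20 in SDC and 15 of 16 in QQS. At each gene, reads of the Ler-0 library were thus placed on sequence that Col-0 lacks.

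Parts of the repeats at the genes, whose levels are described further on, are printed here, 5′ to 3′ on the plus strand, which is the coding strand of all 3 genes. Capitals mark bases whose cytosine (a C, or the C opposite a G) had 3 or more reads and was methylated in 25% of them or more. Col-0 sequence is from RefSeq, build TAIR10.1, and Ler-0 sequence was rebuilt from the deposited table of Ler-0 cytosines, in which an A or T that no neighbouring cytosine resolves is written n. In Ler-0 a lower-case c or g can also mean fewer than 3 reads.
For FWA, at chr4:13038244-13038288 and chr4:13038289-13038329, just before the annotated start, lie copies of a short repeat.
FWA Ler-0 short copy 1: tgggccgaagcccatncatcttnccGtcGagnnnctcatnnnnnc
FWA Ler-0 short copy 2: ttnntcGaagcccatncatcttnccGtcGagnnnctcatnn
FWA Col-0 short copy 1: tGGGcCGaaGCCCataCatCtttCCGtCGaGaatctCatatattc
FWA Col-0 short copy 2: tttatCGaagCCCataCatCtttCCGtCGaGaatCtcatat
A longer FWA repeat follows. Its copy 1 holds exon 1, intron 1 and the beginning of exon 2, and its copy 2 the rest of exon 2 and the beginning of intron 2, and the stretches shown are those at chr4:13038418-13038519 in intron 1 and chr4:13038629-13038730 in intron 2.
FWA Ler-0 long copy 1, intron 1: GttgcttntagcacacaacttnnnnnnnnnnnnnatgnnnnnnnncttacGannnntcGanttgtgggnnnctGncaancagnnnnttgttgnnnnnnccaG
FWA Col-0 long copy 1, intron 1: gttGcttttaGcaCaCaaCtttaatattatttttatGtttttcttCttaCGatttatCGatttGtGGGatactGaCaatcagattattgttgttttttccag
FWA Col-0 long copy 2, intron 2: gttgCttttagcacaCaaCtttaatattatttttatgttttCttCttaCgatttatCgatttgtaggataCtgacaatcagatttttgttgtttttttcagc
For SDC, units of 32 bases follow each other upstream of the start, at chr2:7681860-7682094, numbered from the upstream end in each sequence. Shown are units with many and with few methylated cytosines in each library.
SDC Ler-0 unit 4: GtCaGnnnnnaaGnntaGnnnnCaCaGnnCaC
SDC Ler-0 unit 3: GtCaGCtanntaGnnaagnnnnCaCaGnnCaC
SDC Ler-0 unit 7: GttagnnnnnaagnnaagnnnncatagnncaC
SDC Col-0 unit 4: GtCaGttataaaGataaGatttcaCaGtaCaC
SDC Col-0 unit 5: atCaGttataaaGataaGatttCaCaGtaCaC
SDC Col-0 unit 1: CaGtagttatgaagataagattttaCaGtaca
For QQS, the longest repeat has units of 39 bases and lies far upstream, inside the pseudogene AT3G30722, with 1 unit at chr3:12347273-12347311. The stretch at chr3:12348594-12348673 has no counterpart in the aligned Ler-0 sequence.
QQS Ler-0 upstream unit: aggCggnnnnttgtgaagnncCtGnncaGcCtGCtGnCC
QQS Col-0 upstream unit: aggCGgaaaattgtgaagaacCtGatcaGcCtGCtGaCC
QQS Col-0 lost stretch: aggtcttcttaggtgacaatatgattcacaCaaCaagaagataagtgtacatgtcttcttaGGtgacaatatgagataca

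The short FWA copies were equal at 37 of 41 bases in Col-0 and the intron stretches at 98 of 101. Among bases resolved in Ler-0, none differed from Col-0 (0 of 35 and 0 of 32 in the short copies, 0 of 60 and 0 of 63 in the intron stretches). These counts leave out every n of Ler-0. In the stretch of long copy 1, a Col-0 c faces an n, which is an A or T, so the sequences do differ there. That stretch held 28 cytosines in Ler-0 and 29 in Col-0. Among the SDC units of Col-0, units 3, 5, 6 and 7 shared 29 to 31 of 32 bases with unit 4, whereas unit 2 shared 24 and unit 1 only 5, so unit 1 is not a copy in the same phase. In the capitals of SDC, the recurring CaG trinucleotides are CpHpG sites, and their C and G are in capitals together in several units, as both strands of a CpHpG site were methylated there.

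Across the whole stretches, FWA was nearly the same sequence in the ecotypes and SDC was not. FWA, at chr4:13038360-13042464 with 10 exons, differed at 27 of 6092 aligned bases (0.443%), and Ler-0 had 94 more bases at position +2673 in intron 7. SDC, at chr2:7682162-7684083 with 3 exons, differed at 187 of 3554 aligned bases (5.26%). Its Ler-0 sequence lacked stretches of 84, 84, 77 and 84 bases between positions -1655 and -1258 and had insertions of 17 and 15 bases within the repeat, which make 1 more unit of 32 bases. QQS, at chr3:12349047-12349933 with 3 exons, differed at 34 of 2737 aligned bases (1.24%), lacked 148 bases in Ler-0 from position -484 to -337 and had 31 more bases just after its start. Positions count from 0 at the first base of the annotated gene, with upstream positions negative.

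**Figure D1:**
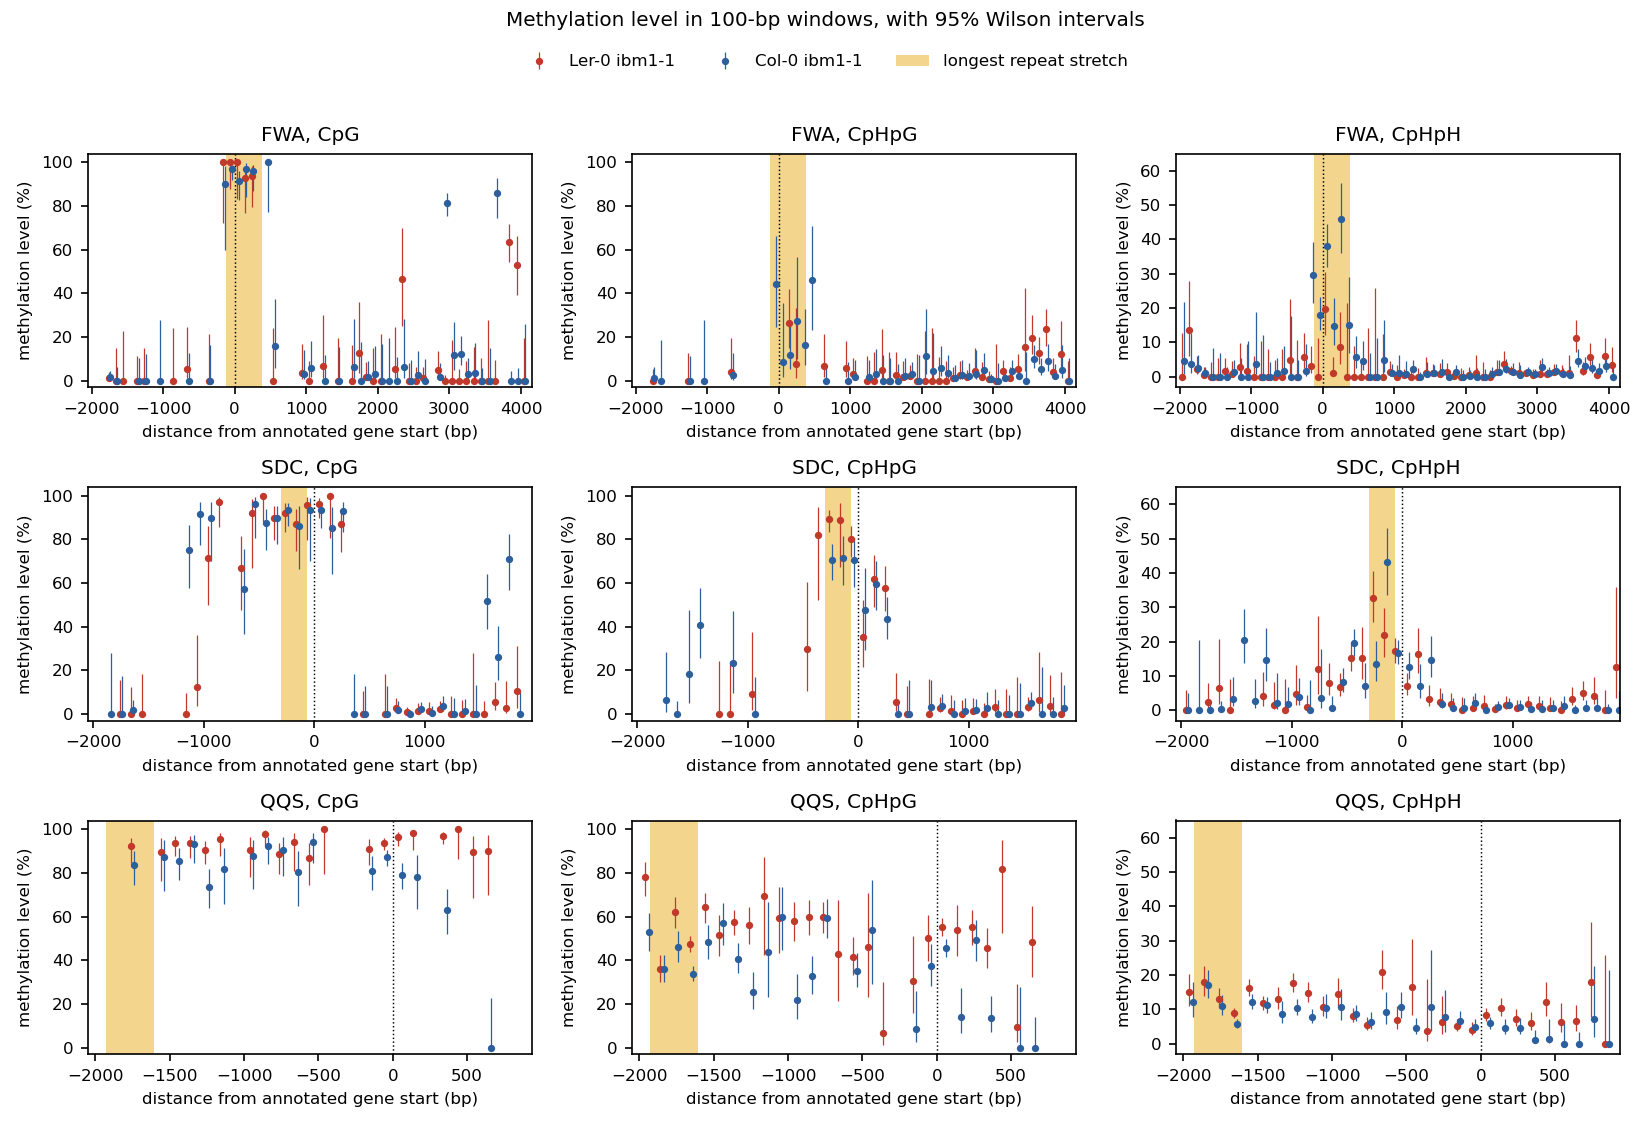
Methylation level in percent of successive 100-bp windows against distance from the annotated start in bp, for FWA, SDC and QQS in CpG, CpHpG and CpHpH, with Ler-0 ibm1-1 in red and Col-0 ibm1-1 in blue, bars for 95% Wilson intervals, the longest repeat shaded, and windows of fewer than 10 calls left out. FWA CpG methylation stands as a narrow block at the start, SDC CpG methylation covers the promoter and the start of the transcribed region, and QQS methylation fills the upstream stretch in both libraries and, in Ler-0, runs on through the gene.

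FWA encodes a homeodomain transcription factor that is silent in leaves, is expressed from the maternal allele in the endosperm, and delays flowering where it is expressed ectopically. Around its start, methylation formed a sharp block in both libraries, among the windows with at least 10 calls. From position -2000 to -200, CpG levels of the windows lay between 0% and 5.26% in Ler-0 (8 windows) and between 0% and 1.54% in Col-0 (7 windows). From -200 to +400 they lay between 92.6% and 100% in Ler-0 and between 90.0% and 96.9% in Col-0 (5 windows each). From +600 to +2300 they lay at 12.5% or less in Ler-0 and 6.25% or less in Col-0. The block lay over the repeats, which the self-comparison of the sequence placed at chr4:13038244-13038746, from position -116 to +386.

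In the FWA repeats, CpG methylation was near complete in both ecotypes and CpHpH methylation was lower in Ler-0. The CpG level was 96.5% in Ler-0 (91.4 to 98.6%, 111 of 115 calls), against 95.2% in Col-0 (92.2 to 97.1%, 280 of 294 calls). The difference of 1.28 percentage points had an interval of -4.18 to 5.01 points, which spans 0. The CpHpG level was 21.0% in Ler-0 (62 calls) and 18.8% in Col-0 (117 calls), a difference of 2.16 points (-9.37 to 15.3), and a difference was not detectable at this depth. The CpHpH level was 7.64% in Ler-0 (5.05 to 11.4%, 21 of 275 calls), against 29.1% in Col-0 (26 to 32.5%, 217 of 745 calls), and the difference of -21.5 points (-25.7 to -16.6) lies well outside its counting error.

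The lower CpHpH level of Ler-0 was seen in each FWA copy and on both strands. In short copy 1 it was 5.56% in Ler-0 (18 calls) and 39% in Col-0 (41 of 105 calls). In short copy 2, 0 of 11 calls were methylated in Ler-0, which allows a level of up to 27.3%, against 22.5% of 80 calls in Col-0, so this copy alone does not separate the libraries. Long copy 1, which holds the first exon and intron, had 10.2% in Ler-0 (147 calls) and 27.2% in Col-0 (405 calls). Long copy 2 had 5.05% in Ler-0 (99 calls) and 31.0% in Col-0 (155 calls). By strand, the difference was -23.5 points on the plus strand and -23.1 points on the minus strand.

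Depth moved with this result. The repeats had a mean of 2.43 reads per CpHpH cytosine in Ler-0, against 6.42 in Col-0, below both library means. With cytosines of at least 5 reads only, the CpHpH levels were 8.33% in Ler-0 and 27.6% in Col-0, a difference of -19.3 points. Of the CpCpG sites in the repeats, where the 2 cytosines are judged separately at 5 reads or more each, 0 of 8 had enough reads in Ler-0, and 5 of 7 in Col-0. In Col-0, 2 were methylated at the internal cytosine alone (CpmCpG) and 3 at both cytosines (mCpmCpG).

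Beyond the start block, the FWA coding region carried CpG methylation in patches whose place differed between the ecotypes. Coding exon 8 had a CpG level of 1.49% in Ler-0 (3 of 201 calls), against 62.2% in Col-0 (173 of 278 calls). Coding exon 10 was methylated in both, at 47.3% in Ler-0 (150 calls) and 34.3% in Col-0 (140 calls), but at different places, as the windows below show. In the 3′ untranslated region, the level was 40% in Ler-0 (26 of 65 calls), and 0 of 76 calls in Col-0, which allows up to 3.95%. The neighbouring gene MSH3 (AT4G25540), a DNA mismatch repair gene on the opposite strand, overlaps the last 10 bases of FWA in the annotation. Pooled over all FWA coding exons, CpHpG and CpHpH levels were low, at 5.20% and 1.60% in Ler-0 and 3.50% and 1.41% in Col-0. Coding exon 10 alone had a higher CpHpG level, 16.0% in Ler-0 (52 of 324 calls) and 7.87% in Col-0 (30 of 381 calls). That difference was 8.18 points (3.40 to 13.1).

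SDC encodes an F-box protein whose promoter repeats are silenced redundantly by DRM1, DRM2 and CMT3. Its CpG methylation ran from about 1 kb upstream through its first exon, which is untranslated, and its coding region was hardly methylated up to position +1500. CpHpG levels of the 3 windows from -300 to 0 lay between 80% and 89.4% in Ler-0 and between 70.4% and 71.7% in Col-0, and CpHpH levels there between 17.1% and 32.7% in Ler-0 and between 13.4% and 43.2% in Col-0. In its repeats, at chr2:7681860-7682094 (positions -302 to -68), CpG and CpHpH levels were alike within counting error and the CpHpG level was higher in Ler-0. The CpG level was 91.2% in Ler-0 (85.2 to 94.9%, 136 calls), against 92.1% in Col-0 (86.0 to 95.6%, 126 calls), a difference of -0.887 points (-7.84 to 6.21). The CpHpG level was 87.6% in Ler-0 (163 of 186 calls), against 73.7% in Col-0 (154 of 209 calls), a difference of 14.0 points (6.17 to 21.5). The CpHpH level was 26.8% in Ler-0 (403 calls), against 28.1% in Col-0 (306 calls), a difference of -1.31 points (-7.99 to 5.25).

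With both strands pooled, the SDC repeats had 8.96 to 9.71 reads per cytosine in Ler-0 and 8.50 to 9.50 in Col-0. The strands were covered more unequally in Ler-0, with 13.9 to 15.6 reads per cytosine on the plus strand in Ler-0 and 10 to 10.5 in Col-0, and 3.33 to 4.5 on the minus strand in Ler-0 and 6.68 to 8.45 in Col-0. They held no CpCpG site in either sequence, so their CpHpG methylation was all at CpApG and CpTpG sites. CpApG sites had 87.2% in Ler-0 (141 calls) and 71.9% in Col-0 (121 calls). CpTpG sites had 88.9% in Ler-0 (45 calls) and 76.1% in Col-0 (88 calls). Both kinds of site were thus higher in Ler-0. On the plus strand, the CpHpG level was 87.2% in Ler-0 and 70.7% in Col-0, and on the minus strand 88.9% in Ler-0 and 77.4% in Col-0, where the interval of the difference, -2.91 to 22.8 points, includes 0.

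The bases that only Ler-0 has around SDC, in the additional repeat unit and elsewhere, had a CpHpG level of 80.6% (25 of 31 calls) and a CpHpH level of 22.9% (16 of 70 calls), with 0 of 7 CpG calls methylated. The bases that only Col-0 has, most of them in the stretches upstream of -1258, had a CpHpG level of 19.1% (13 of 68 calls) and a CpHpH level of 7.05% (28 of 397 calls). Next to those stretches, the window at -1200 had 0 of 36 methylated CpG calls in Ler-0 (a limit of 8.33%), against 24 of 32 calls (75.0%) in Col-0. The adjoining window at -1100 had 12.5% in Ler-0 (2 of 16 calls) and 91.4% in Col-0 (32 of 35 calls). The upstream edge of CpG methylation at the SDC promoter thus lay nearer to the gene in the Ler-0 library, between -1100 and -1000, against -1200 in Col-0.

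Downstream of the SDC start, exon 1 had a CpG level of 93.7% in Ler-0 (143 calls) and 92.1% in Col-0 (151 calls), and a CpHpG level of 54.8% in Ler-0 (155 calls) and 54.3% in Col-0 (164 calls). Both differences, 1.65 points (-4.56 to 7.83) and 0.570 points (-10.2 to 11.4), had intervals that include 0. From position +300 to +1500, in steps of 100 bp counted from the start, no window with at least 10 calls exceeded 2.59% CpG methylation in Ler-0 or 3.68% in Col-0. Across coding exon 3 the CpG level was 1.74% in Ler-0 (1034 calls) and 7.59% in Col-0 (1133 calls), and the Col-0 steps above that level all lay beyond +1500. AT2G17695, on the opposite strand, overlaps 1303 bases of SDC in the annotation.

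**Figure D2:**
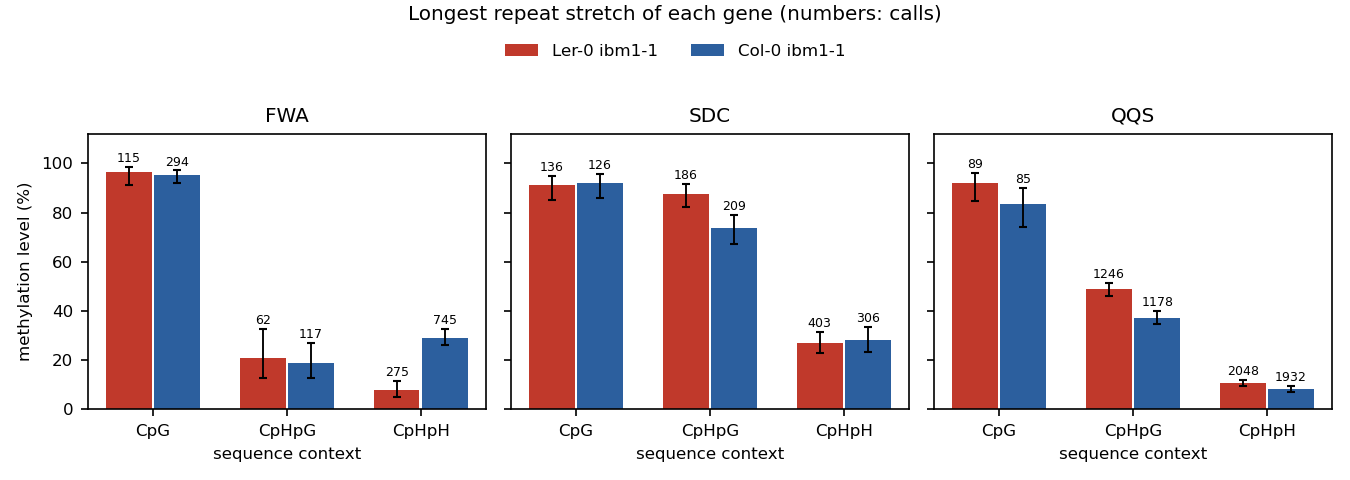
Methylation level in percent of the longest repeat stretch of FWA, SDC and QQS in CpG, CpHpG and CpHpH, with Ler-0 ibm1-1 to the left of Col-0 ibm1-1 and bars for 95% Wilson intervals. The intervals of Ler-0 and Col-0 lie apart for FWA CpHpH (7.64% and 29.1%), SDC CpHpG (87.6% and 73.7%) and QQS CpHpG (48.7% and 37.3%).

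QQS is an orphan gene, found only in Arabidopsis thaliana, that affects starch content and whose silencing varies among accessions. Its upstream stretch was methylated throughout in both libraries, and within the gene the methylation went further in Ler-0. Over the 2 kb upstream, most of which is the pseudogene AT3G30722 (chr3:12346922-12348706), the CpG level was 92.8% in Ler-0 (1275 calls) and 86.0% in Col-0 (1041 calls). The CpHpG level there was 52.9% in Ler-0 (2723 calls) and 39.3% in Col-0 (2380 calls). The CpHpH level was 11.5% in Ler-0 (9466 calls) and 9.0% in Col-0 (8454 calls). The level was higher in Ler-0 in each context. In CpHpH the difference was small, in the pooled level and also in the median window, at 12.4% in Ler-0 and 9.93% in Col-0.

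QQS was the most deeply covered of the 3 genes. Its upstream stretch had 17.7 to 22.7 reads per cytosine in Ler-0, above the library mean of 6.58, and the repeat there had 20.9 to 29.7 in Ler-0 and 19.7 to 28.0 in Col-0. Reads of further copies of a repeat can be placed there, and whether they were was not tested. In this repeat, at chr3:12347117-12347442, the CpHpG level was 48.7% in Ler-0 (1246 calls) and 37.3% in Col-0 (1178 calls), a difference of 11.4 points (7.51 to 15.3). The CpG level was 92.1% in Ler-0 (89 calls) and 83.5% in Col-0 (85 calls), a difference of 8.61 points (-1.25 to 18.7), and rested on 4 cytosines. The CpHpH level was 10.5% in Ler-0 and 8.28% in Col-0, a difference of 2.22 points (0.400 to 4.03).

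Within QQS, CpG methylation was present in Ler-0 in every exon and intron that held CpG sites, and in Col-0 in exon 1 and intron 1 only. Exon 1, untranslated, had a CpG level of 97.1% in Ler-0 (205 calls) and 78.9% in Col-0 (228 calls). Intron 1 had 99.3% in Ler-0 (137 calls) and 81.0% in Col-0 (63 calls). Beyond intron 1, methylated CpG calls were found in Ler-0 alone. The next stretch, the untranslated part of exon 2, had 87.1% in Ler-0 (27 of 31 calls) and 0 of 18 calls in Col-0, which allows up to 16.7%. In intron 2 the level was 97.1% in Ler-0 (33 of 34 calls), and 0 of 14 calls in Col-0, which allows up to 21.4%. In the coding part of exon 3 the level was 89.7% in Ler-0 (26 of 29 calls), and 0 of 17 calls in Col-0, which allows up to 17.6%. The limits that these zeros allow are all far below the Ler-0 levels, though each stretch holds only 2 to 6 CpG sites.

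CpHpG and CpHpH methylation of QQS was also lower in Col-0 beyond intron 1, but it was not absent there. In the untranslated part of exon 2, 10 of 27 CpHpG calls were methylated in Ler-0 (37.0%) and 2 of 22 in Col-0 (9.09%). In CpHpH, 6 of 81 calls were methylated in that part in Ler-0 (7.41%) and 2 of 46 in Col-0 (4.35%). The interval of that CpHpH difference, -7.87 to 11.5 points, includes 0. In the coding part of exon 3, 18 of 54 CpHpG calls were methylated in Ler-0 (33.3%) and 0 of 34 in Col-0, which allows up to 8.82%. There, 16 of 292 CpHpH calls were methylated in Ler-0 (5.48%), against 0 of 142 in Col-0, which allows up to 2.11%. In intron 1 the CpHpG level was 48.1% in Ler-0 (81 calls) and 15.6% in Col-0 (45 calls). Over the whole QQS gene the levels were 96.6% in Ler-0 and 67.9% in Col-0 in CpG, 52.9% in Ler-0 and 39.2% in Col-0 in CpHpG, and 8.36% in Ler-0 and 4.24% in Col-0 in CpHpH.

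The ecotypes also differ in the sequence at the QQS start. The inserted bases of Ler-0 lie mostly in a repeat at the start itself (positions 0 to 74 in Col-0), and the bases that only Ler-0 has were methylated in 101 of 151 CpHpG calls (66.9%) and in 10.7% of the CpHpH calls. That start repeat had a CpG level of 96.5% in Ler-0 (85 calls) and 81.5% in Col-0 (124 calls), a difference of 15.0 points (6.39 to 23.1). The stretch that Ler-0 lacks, printed above, had 12 of 200 CpHpH calls methylated in Col-0 (6%, 3.47 to 10.2%) and no CpG or CpHpG site. Of its 28 cytosines, all had reads in Col-0.

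**Figure D3:**
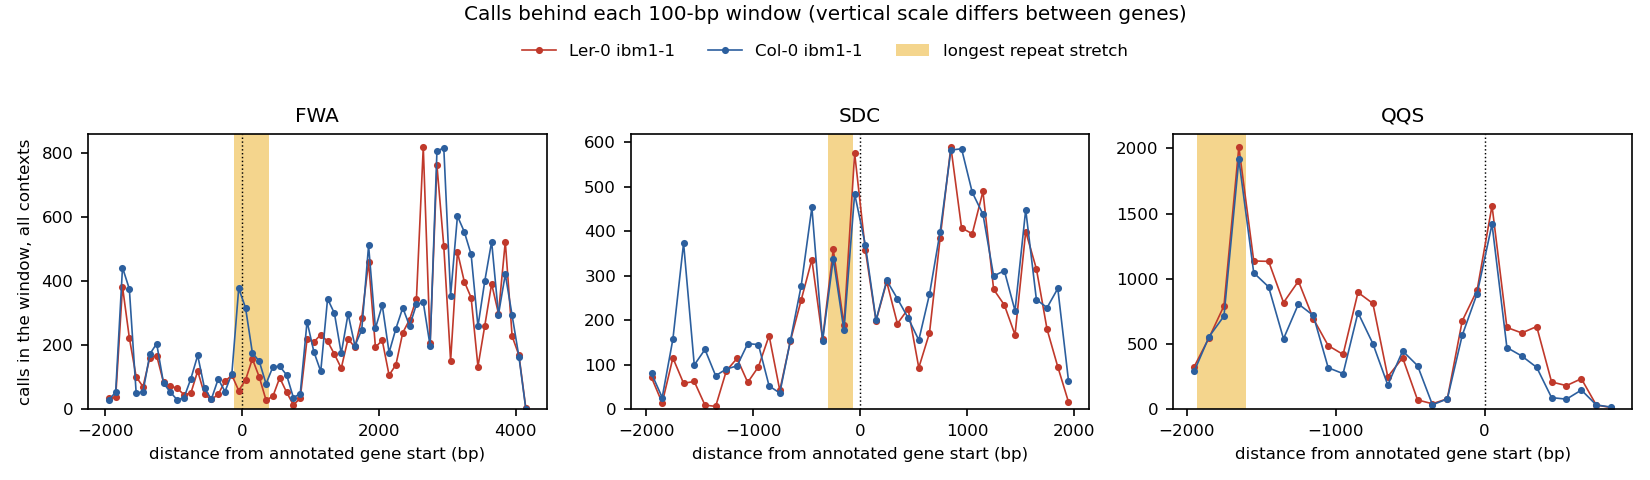
Number of calls, all contexts together, in successive 100-bp windows against distance from the annotated start in bp for FWA, SDC and QQS, with Ler-0 ibm1-1 in red and Col-0 ibm1-1 in blue, the longest repeat shaded, and a vertical scale that differs between genes. The median window has 159 calls in Ler-0 and 198 in Col-0 for FWA, which is thinly covered around its start, and 584 calls in Ler-0 and 446 in Col-0 for QQS, whose highest windows lie at its upstream repeat and its start.

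CpCpG sites of the 3 genes were sorted by which of their cytosines was methylated, with the internal cytosine called at 50% or more and the external at 25% or more. Upstream of QQS, 10 sites had enough reads in Ler-0 (5 CpmCpG and 5 mCpmCpG), and 11 in Col-0 (5 CpmCpG and 6 mCpmCpG). In the SDC gene, 19 sites had enough reads in Ler-0 (16 without methylation, 1 CpmCpG and 2 mCpmCpG), and 26 in Col-0 (19 without, 4 CpmCpG and 3 mCpmCpG). No site with methylation at the external cytosine alone was found in any of the genes or upstream stretches in either library. Upstream of QQS every site with enough reads was methylated, and in the SDC gene most were not.

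To place the differences between the libraries among those of the genome, 100-bp windows were compared over the whole genome, on a grid counted from the first base of each chromosome, which differs from the steps counted from the gene starts above, by a two-sided Fisher's exact test, with p-values adjusted by Benjamini-Hochberg over all windows of a context. A window was called at an adjusted p under 0.01 with a difference of at least 40 points in CpG, 20 in CpHpG or 10 in CpHpH, provided that it held 4 or more cytosines with an average depth of 4 or more reads in each library. The test compares the libraries, not the ecotypes. In CpG, 5 of 43 tested windows of the 3 genes were called, against 8.93% of 404692 windows over the genome. Of these, 2 were higher and 3 lower in Ler-0, where the genome had 4.34% higher and 4.59% lower. In CpHpG, 4 of 61 windows were called, all higher in Ler-0, against 8.33% of 463913 windows (6.69% higher and 1.64% lower). In CpHpH, 2 of 71 windows were called, 1 in each direction, against 1.59% of 513547 windows (0.575% higher and 1.02% lower). These shares were near those of the genome.

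The called CpG windows lay in transcribed sequence, but much of the promoters was not tested in CpG. For FWA no window between those at -1159 and +941 was tested, and for SDC none upstream of that at -661. The SDC steps at the upstream edge of CpG methylation, described above, were thus outside this comparison. In FWA the window at +2841, in exon 8, had 1.72% in Ler-0 (3 of 174 calls) and 67.8% in Col-0 (173 of 255 calls). The FWA window at +3641, in exon 10, had 0 of 38 methylated calls in Ler-0, against 48 of 56 calls (85.7%) in Col-0. A little further on, at +3841, the order turned round, with 97 of 116 calls (83.6%) in Ler-0 and 0 of 110 in Col-0. The SDC window at +1539, in the coding region, had 2.6% in Ler-0 (2 of 77 calls) and 64.1% in Col-0 (41 of 64 calls), and was not called where a mean of 8 reads was asked for. The QQS window at +354, from the end of intron 1 through exon 2, had 91.3% in Ler-0 (42 of 46 calls), against 0 of 24 in Col-0. No QQS CpG window was called with the grid shifted by 50 bp, with windows of 200 bp or at a mean of 8 reads. In each of these windows 1 library was close to the chloroplast level and the other was above 60%.

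The called CpHpG and CpHpH windows lay upstream of SDC and QQS, with 1 at the first QQS intron. In SDC the CpHpG window at -261 had 92.7% in Ler-0 (115 of 124 calls) and 69.7% in Col-0 (83 of 119 calls), with an adjusted p of 7.99e-05 by Fisher's exact test. No SDC CpHpG window was called with the grid shifted by 50 bp (0 of 15 tested) or with windows of 200 bp (0 of 12). In QQS the CpHpG window at -1346 had 53.0% in Ler-0 and 22.7% in Col-0, and the window at -946 had 43.7% in Ler-0 and 13% in Col-0, both within the upstream pseudogene. Further down, the QQS window at +254, across the end of exon 1 and intron 1, had 83.5% in Ler-0 (76 of 91 calls) and 46.0% in Col-0 (23 of 50 calls). In CpHpH, SDC had a window that was higher in Ler-0 at -361, with 17.1% (14 of 82 calls), against 1.61% (2 of 124 calls) in Col-0, and a window that was lower at -161, with 21.4% in Ler-0 (50 of 234 calls), against 39.4% in Col-0 (56 of 142 calls). With the shifted grid and with windows of 200 bp, a window overlapping the higher one was called, and none overlapping the lower one. These SDC windows, which have 1 window between them, differed in opposite directions, while the pooled CpHpH level of the SDC repeat hardly differed.

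**Figure D4:**
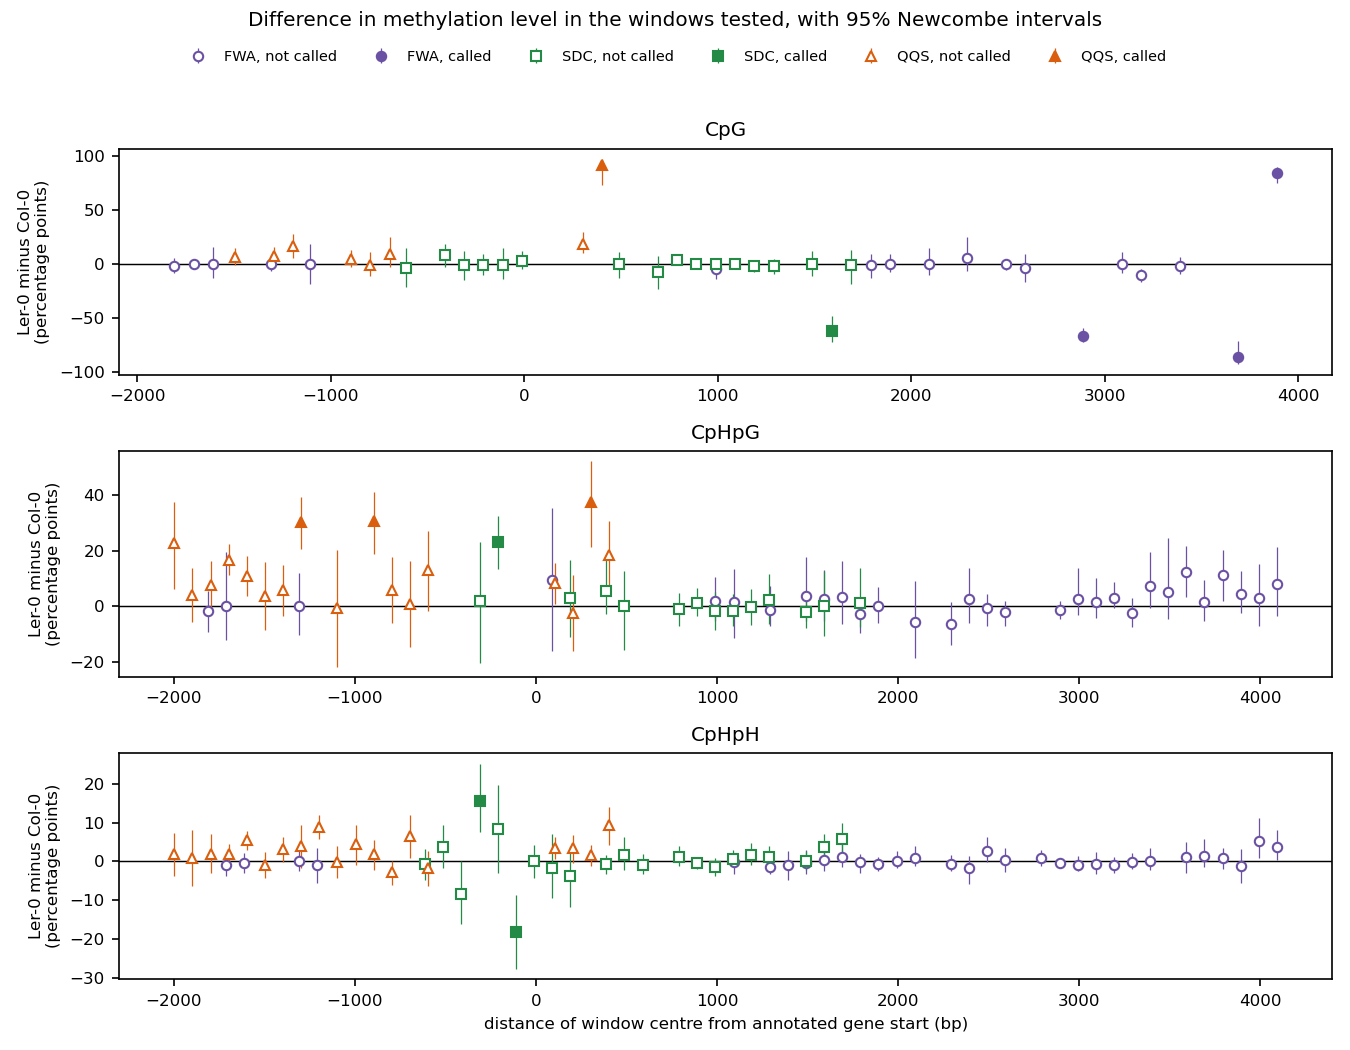
Difference in methylation level, Ler-0 minus Col-0 in percentage points, of the tested 100-bp windows of FWA, SDC and QQS in CpG, CpHpG and CpHpH against distance of the window centre from the annotated start in bp, with 95% Newcombe intervals as bars and filled symbols for called windows. Called CpG windows lie inside FWA, SDC and QQS, and QQS windows lie mostly above 0.

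The windows of QQS were mostly higher in Ler-0, also where single windows were not called. In CpG, 7 of 8 tested QQS windows were higher in Ler-0, with a median difference of 8.19 points. Over the genome 181606 of 404692 windows (44.9%) were higher, 147603 were lower and the rest were equal, with a median of 0. In CpHpG, 15 of 17 were higher, with a median of 8.35 points, against 54.1% of windows and a median of 0.556 points over the genome. In CpHpH, 15 of 19 were higher, with a median of 2.00 points, against 52.9% and a median of 0.097 points. The genome shares count equal windows in their base, and the genome windows were not matched to those of QQS in level. Among the called windows of the genome, higher ones also outnumbered lower ones in CpHpG, but not in CpG or CpHpH. Neighbouring windows share reads and are not independent, so these counts are a description. FWA windows, by contrast, had medians of 0 points in CpG, 1.88 in CpHpG and -0.171 in CpHpH, and SDC windows -0.510, 0.602 and 0.077.

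Low depth kept most of the FWA repeats out of this comparison. On the grid used, no FWA window over the repeats reached a mean of 4 reads per cytosine in both libraries in CpG or CpHpH. With the grid shifted by 50 bp, 1 of 30 tested FWA windows was called in CpHpH, the one at +91 in the repeats, with 1.25% in Ler-0 (1 of 80 calls) and 17.9% in Col-0 (15 of 84 calls, adjusted p = 0.00953, Fisher's exact test). Of the tested windows that missed a limit, the largest CpHpG difference of FWA was at +3541, with 23.0% in Ler-0 and 10.6% in Col-0 (adjusted p = 0.0472, Fisher's exact test). The largest CpHpH difference of QQS was at +354, with 11% in Ler-0 and 1.60% in Col-0 (adjusted p = 0.0165, Fisher's exact test). The largest CpHpH difference of FWA was at +3941, with 6.50% in Ler-0 and 1.24% in Col-0 (adjusted p = 0.239, Fisher's exact test).

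Over whole genes, none of the 3 was called in any context by the same rule, a comparison added after the data had been seen. Over all protein-coding genes, 1.07% of 24162 were called in CpG, 3.44% of 23952 in CpHpG and 0.31% of 20674 in CpHpH. QQS came nearest in CpG, at 96.6% in Ler-0 and 67.9% in Col-0, a difference of 28.6 points (adjusted p = 1.89e-27, Fisher's exact test), under the limit of 40 points. In size, the CpG difference of QQS exceeded that of 97.7% of the genes tested, that of FWA 86.9% and that of SDC 61.8%.

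In the 1 kb centred on the start, all 3 genes ranked among the more methylated genes of each library. In CpG, FWA stood at percentile 97.2 in Ler-0 and 97.5 in Col-0, SDC at 97.4 in Ler-0 and 96.5 in Col-0, and QQS at 99.7 in Ler-0 and 96.3 in Col-0. In CpHpG, the percentiles of SDC, 99.8 in Ler-0 and 99.0 in Col-0, were the highest of the 3. In CpHpH, FWA stood at percentile 93.8 in Ler-0 and 98.4 in Col-0, and QQS at 95.4 in Ler-0 and 89.9 in Col-0. FWA was thus the highest of the 3 in CpHpH in Col-0 and the lowest in Ler-0, though its Ler-0 levels rest on 2.06 to 2.61 reads per cytosine.

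Other genes, chosen by name as imprinted or as linked to promoter methylation, were read in the same 1 kb for comparison. Not all of them are known to be silenced by it. The list held 12 genes (MEA, FIS2, PHE1, CID9, AGL36, HDG3, HDG8, HDG9, ROS1, EPF2, FOLT1 and ALN). CID9 (AT3G14450) had been entered under the name MPC, but the annotation gives this locus as CID9, and it is not taken as imprinted here. It lacked the depth to be counted in any context. Of the list, AGL36, a MADS-box gene that is imprinted in the endosperm, was the only one with enough depth that reached 50% CpG or 20% CpHpG methylation. This was 1 of 6 list genes in CpG and 1 of 4 in CpHpG in Ler-0, and 1 of 9 in both contexts in Col-0. In CpHpH, 0 of 3 list genes reached 10% in Ler-0 and 0 of 6 in Col-0. Over all genes with enough depth, the shares were 4.49%, 4.95% and 2.93% in Ler-0 and 5.86%, 6.59% and 5.65% in Col-0 for CpG, CpHpG and CpHpH. AGL36 had a CpG level of 96.6% in Ler-0 and 92.5% in Col-0, and a CpHpG level of 46.7% in Ler-0 and 44.1% in Col-0. HDG9, a homeodomain gene related to FWA, had a CpG level of 81.7% in Ler-0 (60 calls) and 90.7% in Col-0 (107 calls) at a depth under the limit, and FOLT1 was not placed in Ler-0.

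The genes whose 6 levels around the start lay nearest to those of each of the 3, among 11136 genes with enough depth, are known here by locus only. SDC was nearest to AT4G04415 (a distance of 6.96 points over the 6 levels), AT1G42680 (7.69) and AT3G43291 (8.72). QQS was nearest to AT2G07290 (5.62), AT2G10608 (5.85) and AT2G02493 (6.20). FWA was nearest to AT3G55252 (13.5), AT3G43583 (13.7) and AT5G42504 (14.9). No gene came as close to FWA as the nearest genes came to SDC and QQS. FWA itself was under the depth limit in Ler-0, at 2.06 to 2.61 reads per cytosine, and other genes of such depth were left out. Its distances are therefore less certain and do not show that FWA is unusual. Its CpHpH levels of 5.40% in Ler-0 and 21.7% in Col-0 compare with 5.59% in Ler-0 and 13.5% in Col-0 for AT3G55252, and 7.52% in Ler-0 and 10.5% in Col-0 for AT3G43583.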

How the data were processed

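DNA methylation was measured by whole-genome bisulfite sequencing in 1 Ler-0 ibm1-1 library and 1 Col-0 ibm1-1 library. The authors deposited raw counts of methylated and unmethylated calls for every cytosine of both strands, made with Trimmomatic and Bismark (versions not given in the sources used here) on TAIR10 for Col-0 and on a Ler-0 assembly of 545 contigs, with duplicated reads collapsed and no normalization. Reads that map to several copies of a repeat may be lost or misplaced, which affects levels at repeats.

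The Ler-0 sequence was rebuilt from the deposited positions and trinucleotides, and 27.3% of its bases stayed unresolved between A and T. The Col-0 nuclear positions equal RefSeq TAIR10.1 base for base. Tiles of 500 bp were placed with bwa 0.7.19-r1273 (89.0% of 238291 placed once), and 88.1% of 1191461 windows of 100 bp were placed. Genes were aligned base by base with Biopython 1.88. A repeat is a stretch with at least 26 of 30 bases equal at an offset of 25 to 1000 bases, merged over gaps of up to 50 bp.

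Levels are pooled counts with 95% Wilson intervals, and differences are Ler-0 minus Col-0 with Newcombe intervals. With 1 library per ecotype, Fisher's exact test compares libraries. A count of 0 was given the limit of 3 counts. On simulated windows 96.5% of CpG changes of 60 points, 64.5% of CpHpG changes of 30 points and 83.5% of CpHpH changes of 15 points were called (200 of 20000 windows each), and 0% of unchanged windows. The simulated calls were drawn independently of each other and without variation between libraries. Real calls share reads, so these shares are not the error rates of the libraries compared here. The genes, the list, the tests and the alternatives were chosen with earlier results of these data known. The genes named are the 3 genes, the list, the 3 genes nearest to each by 6 levels, and per gene and context the tested window with the largest difference. The other called windows, the exons described and the blocks of windows summarised were chosen after their values were seen. Calculations used Python 3.11.15, NumPy 2.4.6, SciPy 1.17.1, Numba 0.67.0, matplotlib 3.10.9 and minimap2 2.31-r1302. Other libraries of the study were not used here.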

Additional observations from a re-analysis of the deposited data

How the results depend on the processing

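Of 72 differences in repeat levels under other settings, 68 moved by less than the counting error, and the differences whose interval excluded 0 (FWA CpHpH, SDC CpHpG, QQS CpHpG and CpHpH) kept their sign in all. Taking 500 bp on each side of the start in place of the repeats gave FWA differences of -4.48 points in CpG and -16.3 points in CpHpH. With cytosines of at least 5 reads the FWA CpHpG difference was 15.4 points, and on the minus strand alone the SDC CpG difference was -9.46 points. Of 324 levels, 80 moved by more than their counting error. Of 21 counts of called windows, 14 stayed within 1.5 times. The CpG count was 3 at a mean of at least 8 reads per cytosine, and the CpHpG count 2 with windows of 200 bp. The CpHpH count, 2 as reported, was 1 with windows of 200 bp, 0 at 8 reads, 4 without a limit on the difference, 0 with the deeper library thinned and 1 with minimap2. A count of similar size can hold other windows: on a grid shifted by 50 bp, the 5 CpG calls were 4 of FWA, 1 of SDC and 0 of QQS, the 5 CpHpG calls were all of QQS, and 1 of the 2 CpHpH calls was of FWA. The QQS CpG call was lost there, with windows of 200 bp and at 8 reads, the SDC CpHpG call there and with windows of 200 bp, and the SDC CpG call at 8 reads. The causes were not tested. No paired analysis was possible because each ecotype has 1 library. Depth limits FWA most, where the repeats had 2.38 to 2.74 reads per cytosine in Ler-0.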
